A study of Mus musculus with 27 samples.

Results

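Markers of the cells that surround a skeletal muscle fiber were read on arrays of individually picked tibialis anterior myofibers. The set held 34 gene symbols, namely 11 of stromal and extracellular matrix genes, 8 of endothelial genes, 2 of pericyte genes and 13 of macrophage and other immune genes. A probe was taken where the gene name deposited for it was one of these symbols. This gave 41 of the 55681 probes and 33 genes, because Adgre1 was present only under its older symbol Emr1, and the 12 immune genes then stood beside 11 stromal, 8 endothelial and 2 pericyte genes.

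The series held 27 arrays, each of 1 myofiber from a male mouse whose age the labels give as 3 months. The study's methods place the killing of treated mice some time after an injection at that age, so the treated mice may have been older, and its text gives another number of treated fibers and mice than the labels, which are followed here. Wild type (Wt) was represented by 8 myofibers of 2 mice. The knockout, Smn1ΔSkm, was represented by 12 myofibers of 3 mice, and Smn1ΔSkm mice treated with amniotic fluid stem (AFS) cells by 7 myofibers of 2 mice. The Smn1ΔSkm mice, treated or not, carried HSA-Cre and the Smn F7/F7 allele, so Cre was driven by a skeletal muscle actin promoter and the stromal, endothelial and immune cells of these mice were not targeted. The transplanted AFS cells came from donors with intact Smn1, and the donors could carry GFP. Myofibers of 1 mouse are not replicates of a genotype, so levels were compared between mouse means.

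A muscle fiber lies in a basement membrane and is wrapped by endomysium, in which fibroblasts lay down collagens and small proteoglycans, capillaries run along the fiber with pericytes on their walls, and resident macrophages patrol. Collagenase digestion and trituration free the fiber from this tissue, and a picked fiber can still carry neighbouring cells. In RNA from a whole fiber, fewer attached cells of a type and less RNA per cell cannot be told apart.

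The part of each probe that is printed here is the first 30 bases, for the genes on which the results turn, from the 5′ end of the 60-base probe, with the mm9 position of those bases and the strand of the transcript. Ptprc and Cd68 were the genes that differed between genotypes, Dcn was the gene with the widest gap in detection, Cdh5 and Rgs5 were detected on the same arrays, and the probes of Kdr and Itgam are shown because probes of these genes behaved differently. Capitals mark an uninterrupted CA repeat and lower case marks all other bases.
Ptprc (chr1:139961113-139961142, minus strand): gaggaaccagaacatgctgccaatggttct
Cd68 probe 1 (chr11:69477805-69477834, minus strand): gcctcatctcttcaccatgccactgactca
Cd68 probe 2 (chr11:69479009-69479038, minus strand): ccgaatcctatacccaattcagggtggaag
Dcn (chr10:96980233-96980262, plus strand): aacaccttcagatgtgtctatgtgcgttct
Cdh5 (chr8:106668159-106668188, plus strand): acttattataagactctagttctcacagac
Rgs5 (chr1:171623021-171623050, plus strand): agagtaccgctgtgttatctggacattctc
Kdr probe 1 (chr5:76329339-76329368, minus strand): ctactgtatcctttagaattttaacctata
Kdr probe 2 (chr5:76330425-76330454, minus strand): tgtttaaatggaagtggtcctgtcccggct
Itgam probe 3 (chr7:135261755-135261784, plus strand): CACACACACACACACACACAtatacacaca

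A level here is the log2 of the background-subtracted signal minus the 75th percentile of its array. A probe was called detected, or above background, where the scanner software found its spot and flagged it as well above background. For a probe with several spots (10 for Kdr probe 1 and for Pdgfra, 2 for Pecam1) 1 such spot sufficed, which is a looser rule. Means over a mouse take the myofibers with a value. Where the measured signal is said to be kept, a signal under the lowest one well above background on its array was set to that floor. Values at the floor mark a limit and are not measurements. The floor differed between arrays, from −3.86 in Smn1ΔSkm myofiber 5 to −2.27 in Smn1ΔSkm myofiber 2. Levels of different probes are not set against each other. All 8 Wt arrays were on 1 slide that was scanned on a day of its own, so for every comparison with Wt the genotype and the slide cannot be told apart. The arrays also differed in how much they detected, with 43.1% to 60.9% of spots well above background in Wt (median 45.3%), 41.9% to 67.5% in Smn1ΔSkm (median 56.4%) and 46.6% to 54.9% in AFS-treated Smn1ΔSkm (median 49.4%). Smn1 was read by probes at different places of the transcript. The level of the probe that starts at base 1112 was 1.85 ± 0.0146 in Wt (SD, n = 2 mice), 0.16 ± 0.216 in Smn1ΔSkm (n = 3) and 0.24 ± 0.821 in AFS-treated mice (n = 2), a difference of −1.68 between Smn1ΔSkm and Wt (SE 0.369, limma adjusted p = 0.0205). The probe at base 505 gave 2.40 in Wt and 2.59 in Smn1ΔSkm (difference 0.19, limma adjusted p = 0.717), and the files do not say which probe reads the deleted exon. Markers of the fiber itself were present throughout, with 18 to 20 of 20 myofiber genes detected on every array.

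One Wt myofiber stood apart and is given first, since several results rest on it. Myofiber 7, of Wt mouse 2, had 28 of the 33 marker genes above background, against 12 to 21 on the other 7 Wt arrays, although its share of spots above background, 45.9%, was close to the Wt median. It was the only Wt array with Dcn, Lum, Fn1, Postn, Pdgfrb or Cd163 above background. Its Col1a2 level was 5.79 and the next highest Wt level was 1.37. Values without this array are therefore also printed where they differ most, a choice made after its values were seen.

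The median myofiber had more stromal genes detected in the mutant than in Wt. In Wt 3 to 10 of the 11 stromal genes were above background per myofiber (median 4, and 3 to 6 without myofiber 7), compared with 5 to 9 (median 8) in Smn1ΔSkm and 5 to 9 (median 7) in AFS-treated Smn1ΔSkm. For endothelial genes the counts were 2 to 8 of 8 in Wt (median 5, or 4 without myofiber 7), 2 to 8 in Smn1ΔSkm (median 6.5) and 4 to 7 in AFS-treated mice (median 6). The ranges overlapped for every cell type, and immune genes gave medians of 7.5, 9 and 9 of 12 in the same order of groups. With a looser flag of the scanner software, which marks a signal as positive and significant against background, the medians were 6, 9 and 8 for stromal, 7, 7 and 7 for endothelial and 10.5, 10 and 10 for immune genes, so that only the stromal order held. Of the 41 probes, 22 (53.7%) were above background on a larger share of Smn1ΔSkm than of Wt arrays and 7 (17.1%) on a smaller share. Over all probes on the array 38.4% had a larger share and 17.5% a smaller one. These shares are not on one footing, since 17.5% of all probes but 1 of the 41 marker probes (2.44%) were detected on no array and could not differ. No test was made of these counts, because the probes of a cell type rise and fall together on a fiber.

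**Figure D1:**
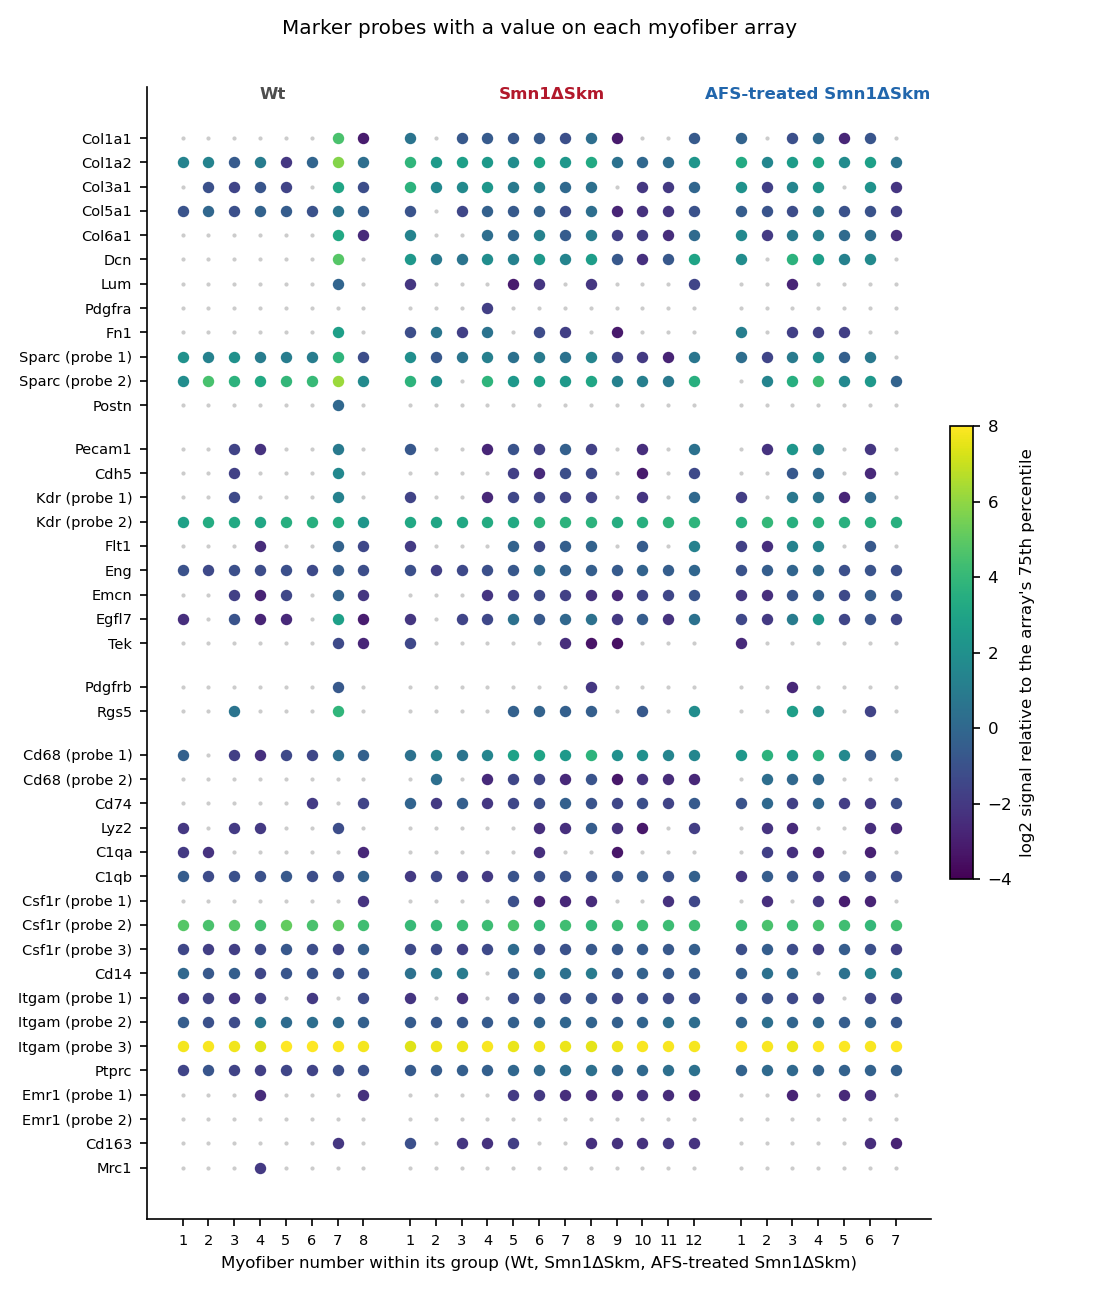
Marker probes (vertical axis, grouped by cell type) on the 27 myofiber arrays (horizontal axis, by group and myofiber number). A coloured dot is a detected probe and its colour the log2 level relative to the 75th percentile of the array, and a small grey dot is a probe without a value. Wt myofiber 7 has 10 of 11 stromal genes, whereas the other Wt myofibers have at most 6, and Dcn has a value on all 12 Smn1ΔSkm arrays.

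The mice within Smn1ΔSkm differed by cell type. Myofibers of mouse 1 had on average 7.5 stromal genes, 4 endothelial genes and 0 pericyte genes above background. Those of mouse 2 had 8.25, 7.5 and 1.25, and those of mouse 3 had 6.75, 5.75 and 0.5. So the fibers of mouse 1 had the fewest vessel markers but not the fewest stromal ones, and 3 of them lay on a slide of their own. The percent of all spots detected averaged 46.4% in mouse 1, 60.3% in mouse 2 and 56.9% in mouse 3, and the part of this in the counts was not tested.

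Among the marker genes tested, the 2 that differed between genotypes were immune. Ptprc encodes CD45, a receptor tyrosine phosphatase carried by nucleated blood-derived cells. Its levels were −1.75, −1.51 and −0.84 in Wt myofibers (lowest, median and highest of 8), −0.62, 0.02 and 0.43 in Smn1ΔSkm (of 12) and −0.37, −0.23 and 0.12 in AFS-treated Smn1ΔSkm (of 7). All 12 Smn1ΔSkm myofibers and all 7 AFS-treated ones lay above all 8 Wt myofibers. Among genes with a value on all arrays of both groups, 2.52% were separated this way between Smn1ΔSkm and Wt and 4.73% between AFS-treated mice and Wt. The means over mice were −1.37 ± 0.0793 in Wt (n = 2), −0.04 ± 0.382 in Smn1ΔSkm (n = 3) and −0.18 ± 0.170 in treated mice (n = 2). Ptprc was 2.52-fold higher in Smn1ΔSkm than in Wt (log2 difference 1.33, SE 0.299, 95% interval 0.64 to 2.02, limma adjusted p = 0.0219). The call was lost without either Wt mouse, where no gene of the array passed, so that loss is not particular to Ptprc. It was also lost without Smn1ΔSkm mouse 2 or 3 (limma adjusted p = 0.0672 and 0.0639). Across these fits the difference stayed between 1.21 and 1.39. Normexp with quantile normalization gave a smaller difference of 0.72 (limma adjusted p = 0.0499).

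Cd68 encodes macrosialin, a glycoprotein of late endosomes and lysosomes that is abundant in macrophages. Probe 1 gave −2.35, −1.33 and 0.36 in Wt (lowest, median and highest of the 7 myofibers with a value), 0.45, 1.74 and 3.77 in Smn1ΔSkm and −0.66, 2.40 and 3.70 in AFS-treated mice. Every Smn1ΔSkm fiber lay above every measured Wt fiber, by a narrow gap (0.45 against 0.36), while the treated fibers overlapped Wt at their low end. With a value on 7 of 8 Wt arrays, Cd68 is outside the genes of which 2.52% were separated this way. No such share was counted for genes with a missing value. The mouse means were −1.49 and −0.70 in Wt, 0.95, 3.04 and 1.72 in Smn1ΔSkm, and 3.13 and 0.44 in treated mice. The difference was 2.99 (7.97-fold, SE 0.823, 95% interval 1.11 to 4.88, limma adjusted p = 0.0376). This call too was lost without either Wt mouse, where no gene of the array passed. It was also lost without Smn1ΔSkm mouse 2 or 3 (limma adjusted p = 0.0909 and 0.0766). Across these fits the difference was 2.43 to 3.39. The call was lost as well with quantile normalization of the detected values, normexp, the slide as a random block or the mouse number as a block (limma adjusted p = 0.0563 to 0.0789). The block by mouse number sets Smn1ΔSkm mouse 3 aside, since no other group has that number. Probe 2, further upstream in the transcript, was above background on 0 of 8 Wt arrays, 10 of 12 Smn1ΔSkm arrays and 3 of 7 treated arrays, all 3 of mouse 1. No treated fiber of mouse 2 and no Wt fiber had probe 2 above background.

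**Figure D2:**
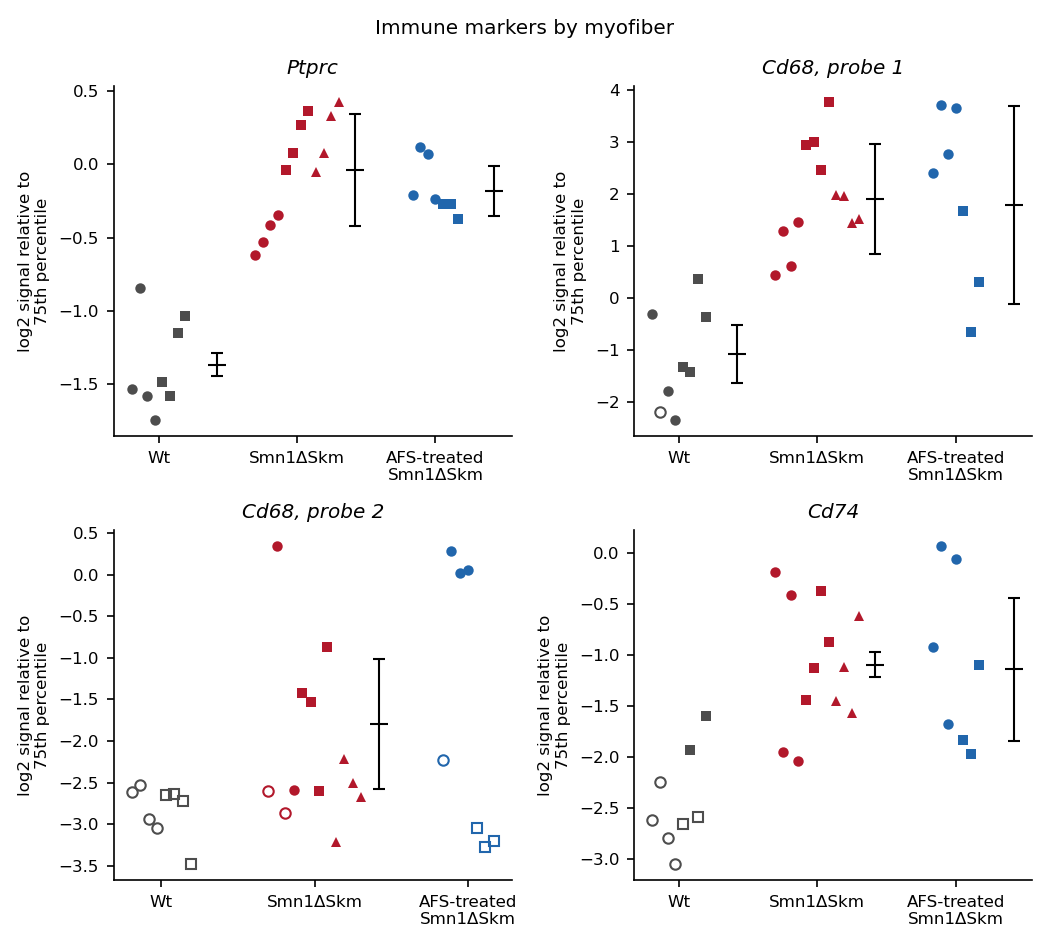
Log2 level relative to the 75th percentile of the array for immune marker probes in each myofiber. Filled symbols are detected and open symbols are signals that were left out. An open symbol is drawn no lower than the lowest signal well above background on its array. Circles, squares and triangles are mice 1, 2 and 3 of a group. Bars show the mean ± SD over mice where at least 75% of the arrays of a group had a value. Ptprc of all 12 Smn1ΔSkm and all 7 AFS-treated myofibers lies above that of all 8 Wt myofibers.

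Ptprc and Cd68 were the 2 of 13 tested marker genes that passed the test between Smn1ΔSkm and Wt, both higher. Over all 17059 genes tested 21.6% passed, 7.66% higher and 13.9% lower. The other 20 of the 33 genes had values on too few of the 20 Wt and Smn1ΔSkm arrays to enter the test (at least 75% were asked for), and such a filter can keep a gene because of the group in which it is high. Of the 13, 8 were higher and 5 lower, with a median difference of 0.42 compared with −0.13 over all genes. Mouse means did not overlap for 3 higher genes (Cd14, Cd68 and Ptprc) and 2 lower ones (Csf1r and Sparc), while over all genes 21.8% lay wholly above and 33.5% wholly below. A share of 3 of 13 is close to that background.

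The remaining immune genes did not move together. Cd14, the co-receptor for bacterial lipopolysaccharide on monocytes, had mouse means of −0.63 and −0.91 in Wt, 0.74, 0.40 and −0.50 in Smn1ΔSkm and 0.00 and 0.92 in treated mice. Its difference of 0.98 (SE 0.432) missed the threshold (limma adjusted p = 0.131). C1qb, a chain of the first complement component made by macrophages, was above background on all 27 arrays and differed by −0.25 (SE 0.360, limma adjusted p = 0.640). C1qa, its partner chain, was above background on 3 of 8 Wt, 2 of 12 Smn1ΔSkm and 4 of 7 treated arrays.

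Cd74, the invariant chain of class II antigen presentation, was above background on 2 of 8 Wt, 12 of 12 Smn1ΔSkm and 7 of 7 treated arrays. It entered the test between Smn1ΔSkm and Wt only when all genes were tested with the measured signal kept, where it was higher by 1.34 (SE 0.350, limma adjusted p = 0.0255, 6.32% of 35527 genes higher). Cd163, a haemoglobin scavenger receptor of resident macrophages, was above background on 1, 9 and 2 arrays of the same groups. Its levels where detected spanned −2.35 to −1.07 in Smn1ΔSkm, close to the detection limit. Lyz2, the lysozyme of myeloid cells, was above background on 4 Wt, 6 Smn1ΔSkm and 4 treated arrays. Emr1, which encodes the macrophage antigen F4/80, had 1 probe above background on 2, 8 and 3 arrays and another on none of 27. Mrc1, the macrophage mannose receptor, was above background on 1 Wt array only.

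Csf1r, the receptor for macrophage colony-stimulating factor, was read by 3 probes that disagreed. The brightest, probe 2, had means of 4.66 and 4.74 in the Wt mice, 4.12, 4.24 and 4.24 in the Smn1ΔSkm mice, and 4.36 and 4.24 in the treated mice, a difference of −0.50 (SE 0.243, limma adjusted p = 0.165). Probe 3 differed by 0.39 in the other direction (limma adjusted p = 0.439). Probe 1 was above background on 1 of 8 Wt, 6 of 12 Smn1ΔSkm and 4 of 7 treated arrays, and on none from Smn1ΔSkm mouse 1. The sign of the probe 2 difference also turned with the normalization (0.05 with quantile normalization of the detected values and 0.02 with normexp), so no direction is given for Csf1r.

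Itgam, the CD11b integrin subunit of myeloid cells, was above background with probes 2 and 3 on all 27 arrays, and probe 3 was the one that entered the test. The difference between Smn1ΔSkm and Wt was −0.14 (SE 0.249, limma adjusted p = 0.704). As printed above, probe 3 opens with 20 bases of CA repeat. That repeat of 10 CA units or its reverse complement was found in 71 probes, 0.128% of those on the array, and 65 of these 71 (91.5%) were above background on all 27 arrays, compared with 24.0% of all probes. What probe 3 hybridised to was not tested.

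Among stromal markers the fibrillar collagens were readable on most fibers. Col1a2, a chain of type I collagen, had mouse means of 0.77 and 0.97 in Wt, 2.88, 2.60 and 0.75 in Smn1ΔSkm and 2.61 and 1.72 in treated mice. The Wt mean of mouse 2 held myofiber 7, and the mutant mice 1 and 2 lay above Wt while mouse 3 lay below. The difference of 1.20 (SE 0.606) did not pass the test (limma adjusted p = 0.177). Without Wt myofiber 7 the difference was 2.01, which did not pass in the same test (limma adjusted p = 0.0682) and did with every gene tested and the measured signal kept (limma adjusted p = 0.0410). Without Smn1ΔSkm mouse 3 it passed with the arrays of the other mice (difference 1.86, limma adjusted p = 0.0362).

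Col3a1, the type III collagen of reticular fibers, had means of −1.13 and 0.10 in Wt, 2.34, 0.69 and −1.38 in Smn1ΔSkm and 1.03 and −0.03 in treated mice. The Smn1ΔSkm mice thus spanned more than the distance between the groups (difference 1.07, SE 0.942, limma adjusted p = 0.429), and without Wt myofiber 7 the difference was 1.80 (limma adjusted p = 0.176). Col1a1, the other chain of type I collagen, was above background on 2 of 8 Wt, 9 of 12 Smn1ΔSkm and 5 of 7 treated arrays. Its Wt values were 4.53 in myofiber 7 and −3.09 in myofiber 8. Col6a1, of the microfibrillar type VI collagen, was likewise above background in the Wt mice only in myofibers 7 and 8 (3.19 and −2.57), and in 10 of 12 Smn1ΔSkm and 7 of 7 treated myofibers. With every gene tested and the measured signal kept, Col6a1 was higher in Smn1ΔSkm than in Wt by 1.53 (limma adjusted p = 0.104), and by 2.25 without myofiber 7 (limma adjusted p = 0.0121). Most of the Wt values of Col6a1 in these fits were at the floor, which the test takes as measurements.

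Dcn encodes decorin, a small leucine-rich proteoglycan that binds collagen and is a main product of muscle fibroblasts. It was above background on 1 of 8 Wt arrays (myofiber 7, level 4.85), on 12 of 12 Smn1ΔSkm arrays (−2.35, 1.31 and 2.99 as lowest, median and highest) and on 5 of 7 treated arrays (1.23, 1.86 and 3.71 where detected). Of all probes on the array 104 (0.187%) were above background on all 12 Smn1ΔSkm arrays and on at most 1 Wt array, and Dcn was the only marker probe among them. The mirror pattern, all 8 Wt and at most 1 Smn1ΔSkm array, was shown by 31 probes (0.0557%) and by no marker probe.

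The mean level of Dcn was 1.42, 1.91 and −0.20 in the 3 Smn1ΔSkm mice. With the measured signal kept and every gene tested, Dcn was higher by 2.86 in Smn1ΔSkm (SE 0.666, limma adjusted p = 0.0156). Without Wt myofiber 7 the difference was 3.81 (limma adjusted p = 0.00196, 6.09% of genes higher). Of the Wt values then left, all but that of myofiber 8 were at the floor, so this p takes limits as measurements. Against the other 7 Wt arrays, where Dcn was not well above background, the mean of Smn1ΔSkm was at least 14.0-fold higher. This bound sets the mean over the Smn1ΔSkm mice against the larger of the probe's own signal and the lowest signal well above background on each Wt array. The single Wt fiber with detectable Dcn was above the highest Smn1ΔSkm fiber.

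**Figure D3:**
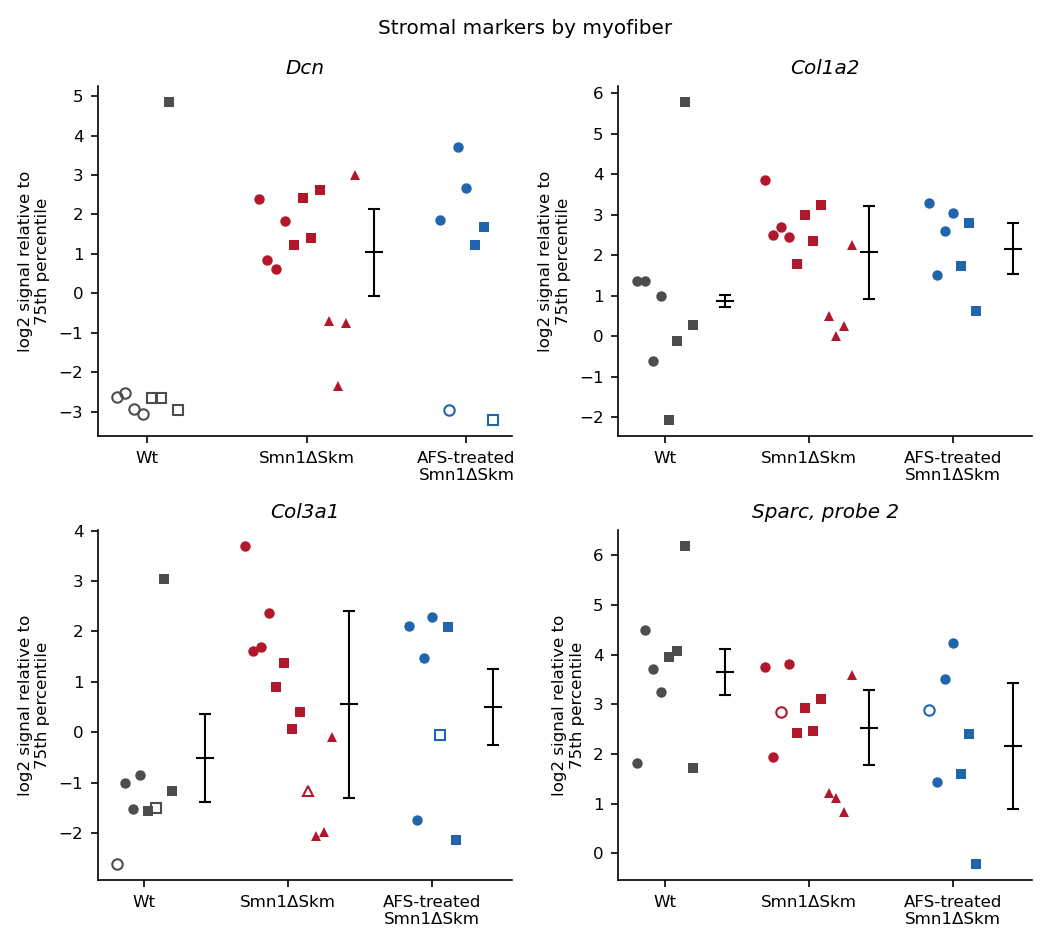
Log2 level relative to the 75th percentile of the array for stromal marker probes in each myofiber, with symbols and bars as in the plot of immune markers. Wt myofiber 7 is the highest Wt point for Col1a2 (5.79) and Dcn (4.85), and the 12 Smn1ΔSkm myofibers all have Dcn above background.

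Sparc, a matricellular protein made by fibroblasts, endothelium and other cells, went the other way. The brighter probe had means of 3.32 and 3.98 in Wt, 3.16, 2.72 and 1.69 in Smn1ΔSkm and 3.06 and 1.26 in treated mice, so no mutant mouse reached a Wt mouse, but the difference of −1.12 (SE 0.597) did not pass (limma adjusted p = 0.198). Wt myofiber 7 was again the highest Wt fiber (6.19, next 4.49). With every gene tested and the measured signal kept, the difference was −1.15 with this fiber and −0.78 without it (limma adjusted p = 0.175 and 0.367). Col5a1, a regulatory collagen chain, differed by −0.67 (SE 0.471, limma adjusted p = 0.319). Fn1, fibronectin, was above background on 1 Wt, 7 Smn1ΔSkm and 4 treated arrays, and Lum, the proteoglycan lumican, on 1, 5 and 1.

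Pdgfra, the receptor that defines fibro-adipogenic progenitors, was above background on 1 of the 27 arrays, a Smn1ΔSkm myofiber of mouse 1. Postn, periostin of remodelling matrix, was above background only in Wt myofiber 7.

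Vessel markers were read on a minority of fibers for several genes. Pecam1, the CD31 adhesion molecule of endothelium, was above background on 3 of 8 Wt, 8 of 12 Smn1ΔSkm and 4 of 7 treated arrays, with levels of −2.22 to 0.92, −2.71 to 0.47 and −2.25 to 2.32 where detected. Cdh5, VE-cadherin of endothelial junctions, was above background on 2, 6 and 3 arrays. Rgs5, a regulator of G-protein signalling abundant in pericytes, was above background on the same 11 arrays as Cdh5, namely Wt myofibers 3 and 7, Smn1ΔSkm myofibers 5, 6, 7, 8, 10 and 12, and treated myofibers 3, 4 and 6.

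Over all probes of the array this exact set of 11 arrays was shared by 3 only, those of Cdh5, Rgs5 and Tie1, an endothelial receptor tyrosine kinase. Another 7 differed on 2 arrays, those of Aqp1, Gpr116, Gpr56, Ly6f, Nos3, Ptprb and Rgs4. Nos3 (endothelial nitric oxide synthase), Ptprb (the VE-cadherin-associated phosphatase) and Aqp1 (a water channel of capillaries) are known vessel genes. This likeness was looked for after the values of Cdh5 and Rgs5 had been seen. None of the 4 fibers of Smn1ΔSkm mouse 1 was in the set and all 4 of mouse 2 were.

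Rgs5 levels on these arrays were 0.60 and 3.84 in Wt, −0.70 to 1.82 in Smn1ΔSkm and −1.56, 2.03 and 2.74 in treated mice, and the groups overlapped. Pdgfrb, the growth factor receptor of mural cells, was above background on 1 array of each group, in Wt on that of myofiber 7 (−0.69). Neither pericyte gene had enough values for the test.

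Kdr, the receptor VEGFR2, gave a different picture with each probe. Probe 1, near the end of the transcript, was above background on 2 Wt, 8 Smn1ΔSkm and 5 treated arrays, where 1 of its 10 spots sufficed. Probe 2 was above background on all 27, with mouse means of 3.17 and 3.21 in Wt, 3.19, 3.61 and 3.66 in Smn1ΔSkm and 3.70 and 3.60 in treated mice (difference between Smn1ΔSkm and Wt 0.30, SE 0.266, limma adjusted p = 0.437). The patchy detection of Cdh5 and Rgs5 was thus seen with Kdr probe 1 but not with probe 2.

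Eng, a co-receptor of the TGF-beta family on endothelium, was above background on all arrays and differed by 0.42 (SE 0.377, limma adjusted p = 0.438). Egfl7, a secreted endothelial factor, had the largest difference among the 3 tested endothelial genes, 0.58 (SE 0.589, limma adjusted p = 0.494), which became 1.51 without Wt myofiber 7 (limma adjusted p = 0.0905). Flt1 (VEGFR1) was above background on 3, 7 and 5 arrays, Emcn (endomucin of capillaries and veins) on 5, 9 and 7, and Tek (the angiopoietin receptor) on 2, 4 and 1. No endothelial gene passed the test on mouse means in any of the 3 comparisons.

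**Figure D4:**
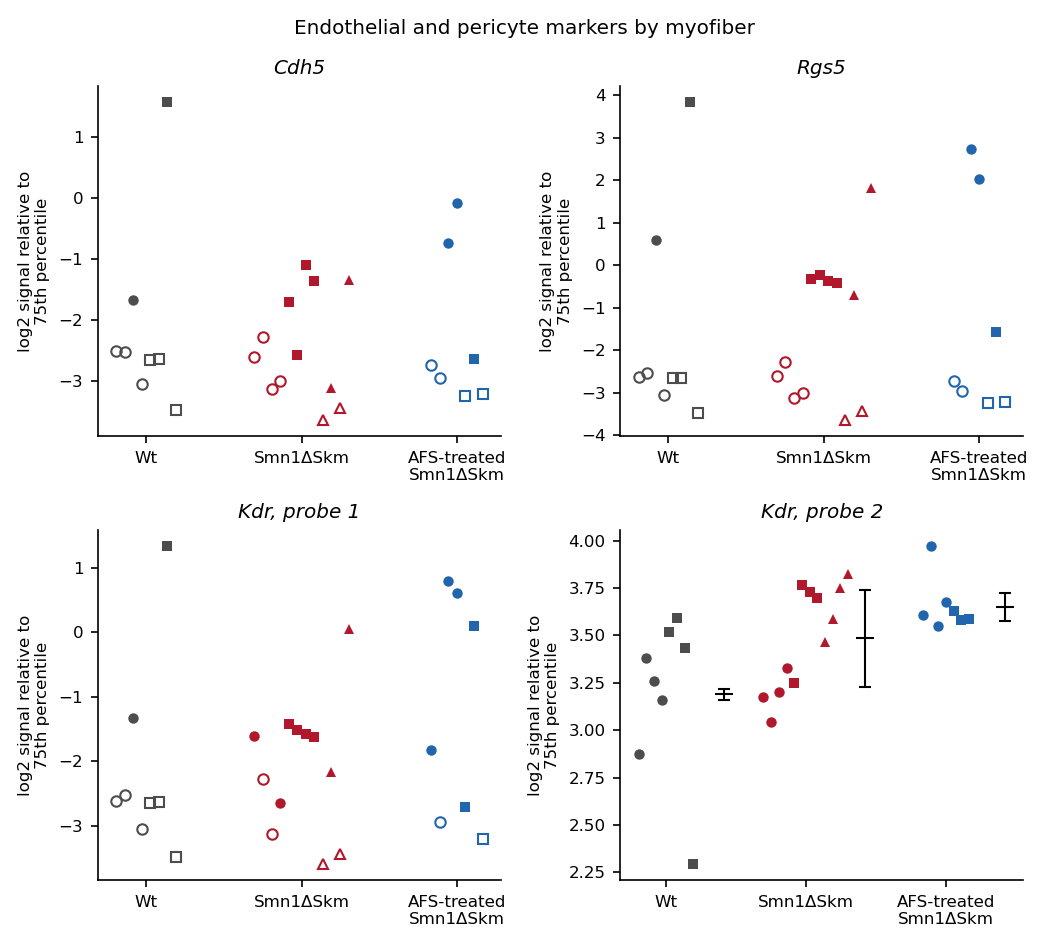
Log2 level relative to the 75th percentile of the array for endothelial and pericyte marker probes in each myofiber, with symbols and bars as in the plot of immune markers. Cdh5 and Rgs5 are filled (detected) on the same 11 arrays, whereas Kdr probe 2 is filled on all 27.

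To follow the cell types together, the measured levels of the members of each type were centred gene by gene and averaged per myofiber. Signals under the floor of an array entered at that floor. The stromal level was −1.20, −0.78 and 3.39 in Wt (lowest, median and highest), −1.41, 0.30 and 1.44 in Smn1ΔSkm and −1.48, 0.37 and 1.18 in treated mice. The endothelial level was −0.83, −0.57 and 2.10 in Wt, −1.0, 0.02 and 1.40 in Smn1ΔSkm and −0.66, −0.22 and 1.90 in treated mice. In both, the highest of all fibers was Wt myofiber 7, and the medians of the mutant groups lay above that of Wt.

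The immune level ran from −0.47 to −0.08 in Wt (median −0.22), from −0.15 to 0.49 in Smn1ΔSkm (median 0.11) and from −0.18 to 0.61 in treated mice (median 0.03). Myofiber 7 did not stand out for immune markers, with a level of −0.13. The immune level ran over a narrower range than the stromal and vessel levels in each group.

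Within the 12 Smn1ΔSkm myofibers the endothelial and pericyte levels had a Pearson correlation of 0.92, whereas stromal and endothelial levels had one of 0.32. Within the 7 treated myofibers these were 0.99 and 0.65. The pericyte level is the mean of 2 genes, and Pdgfrb was above background on 1 of 12 Smn1ΔSkm and 1 of 7 treated arrays. This level therefore mostly follows Rgs5, whose detection was already seen to match that of Cdh5. The correlations describe these fibers and carry no test, because fibers share an animal and in part a slide. In Smn1ΔSkm the stromal level averaged 0.75, 0.44 and −0.85 in mice 1, 2 and 3, and the endothelial level −0.49, 0.46 and −0.08. Mouse 1 therefore had the highest stromal and the lowest endothelial level of the 3.

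**Figure D5:**
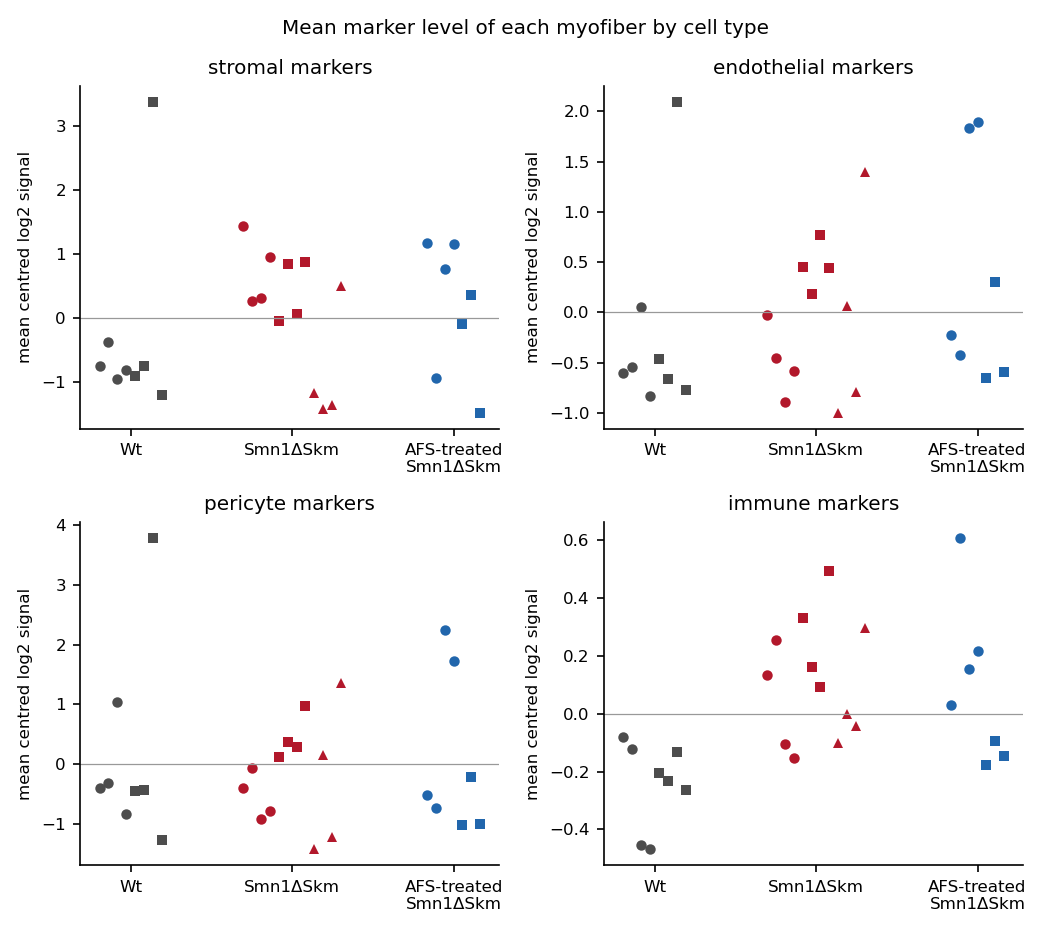
Mean centred log2 level of the marker genes of each cell type in each myofiber, where 0 is the mean over the 27 arrays. Circles, squares and triangles are mice 1, 2 and 3 of a group. Wt myofiber 7, the highest Wt square in the stromal (3.39), endothelial (2.10) and pericyte (3.79) panels, has an immune level of −0.13.

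Whether AFS cell treatment moved the markers was asked by comparing treated with untreated Smn1ΔSkm mice. No marker gene passed the test. Of 15 genes tested 0 passed with limma, and 0 had an unadjusted p under 0.05. Over all 16648 genes 0 passed (0%), and 532 had an unadjusted p under 0.05. The differences ran from −0.36 (Sparc) to 0.65 (Emcn), with a median of 0.09. Ptprc differed by −0.15 (95% interval −0.83 to 0.54) and Cd68 by −0.12 (−2.0 to 1.76), each with a limma adjusted p of 1.00, so these intervals leave room for changes of more than 1 log2 unit in Cd68. Treated mouse means lay above all untreated ones for 2 of 15 genes, Emcn and Itgam, where 12.4% of all genes did, and below them for none, where 4.19% did. Of the 41 probes, 10 were above background on a larger share of treated than of untreated arrays and 17 on a smaller share. The larger share was thus found for 24.4% of marker probes and for 16.9% of all probes. The smaller share was found for 41.5% of marker probes and was not counted over all probes, so no direction is read from these counts.

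Treated mice were compared with Wt as well, with the same Wt arrays as above. No marker gene of 15 passed with limma, 3 had an unadjusted p under 0.05, and 7.77% of all genes passed, 3.47% higher and 4.30% lower. The largest differences were 2.87 for Cd68 (SE 0.90, limma adjusted p = 0.0827), −1.49 for Sparc (SE 0.652, limma adjusted p = 0.170), 1.29 for Col1a2 (SE 0.662, limma adjusted p = 0.229), 1.23 for Cd14 (SE 0.472, limma adjusted p = 0.129) and 1.19 for Ptprc (SE 0.327, limma adjusted p = 0.0621). Ptprc and Cd68 passed here when Smn1ΔSkm mouse 1, which enters through the shared estimate of the spread, was left out (limma adjusted p = 0.0105 and 0.0354). In that fit 2276 of 16648 genes passed as higher and 2563 as lower, compared with 577 and 716 with all mice. Mouse means did not overlap for 5 genes above Wt and 3 below, of 14 with a value in every mouse, and over all genes the shares were 31.9% and 36.0%. With every gene tested and the measured signal kept, Cd68 passed (2.96, limma adjusted p = 0.0432, 3.50% of genes higher). Without Wt myofiber 7, Dcn (3.38, limma adjusted p = 0.00921) and Col6a1 (2.60, limma adjusted p = 0.0172) passed as well, with 3.26% of genes higher. Most of the Wt values left for Dcn and Col6a1 were at the floor, which the test takes as measurements.

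Wider lists of the same cell types were read beside the markers. Between Smn1ΔSkm and Wt 21.6% of all genes passed, 7.66% higher and 13.9% lower, and no list was tested against these shares. Of 24 further stromal genes 12 were tested between Smn1ΔSkm and Wt, with a median difference of 0.30. Pi16, a marker of adventitial fibroblasts, was higher by 1.86 (SE 0.389, limma adjusted p = 0.0182) and Timp2, an inhibitor of metalloproteinases, was lower (−1.08, SE 0.326, limma adjusted p = 0.0477). Both kept their direction in treated mice compared with Wt (Pi16 1.71, limma adjusted p = 0.0480, and Timp2 −1.41, limma adjusted p = 0.04996). Fbln1 and Gsn, of fibroblasts and other cells, shared with Dcn the pattern of detection on all 12 Smn1ΔSkm arrays and at most 1 Wt array. Of 24 genes of this list, 8 to 21 were detected per Wt myofiber (median 12.5, and 21 in myofiber 7), 14 to 22 in Smn1ΔSkm (median 19) and 11 to 20 in treated mice (median 19).

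Of 20 further endothelial genes 6 were tested and 1 passed, Vwf (von Willebrand factor), lower by −1.12 on the log2 scale (SE 0.262, limma adjusted p = 0.0243). Of 10 mural genes 8 were tested, and Tagln (a smooth muscle actin-binding protein) was higher by 1.07 (SE 0.322, limma adjusted p = 0.0475) while Abcc9 (the regulatory subunit of a potassium channel, also made by muscle) was lower (−2.01, SE 0.495, limma adjusted p = 0.0270). Of 28 further immune genes only 4 were tested and 0 passed with limma, with a median difference of 0.66, and 3 to 12 of the 28 were detected per Wt myofiber (median 5), 5 to 19 in Smn1ΔSkm (median 12) and 7 to 14 in treated mice (median 8). The median share of all spots detected was 45.3% in Wt, 56.4% in Smn1ΔSkm and 49.4% in treated mice. Its part in the detection counts of these lists was not tested. The calls in these lists ran in both directions, and neither calls nor counts are read as results on a cell type.

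Because Cd68 lies in the lysosome, 12 lysosomal membrane and hydrolase genes were set beside it. All 12 were tested with limma, 0 passed as higher and 4 as lower in Smn1ΔSkm than in Wt, with a median difference of −0.64. Those that passed included Mcoln1 (−1.86), Gaa (−1.36) and Lamp1 (−1.18). Over all genes 7.66% passed as higher and 13.9% as lower. Whether the difference of Cd68 has to do with the lysosome was not tested.

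Markers of other cells that a fiber preparation can hold were read as well, where 21.6% of all genes passed. Of 8 satellite cell genes 4 were tested and 2 passed, with Sdc4 higher by 1.74 and Itga7 lower (−1.51). Of 6 Schwann cell genes 3 were tested and 0 passed with limma. Of 6 adipocyte genes 3 were tested and 2 passed, Plin1 higher by 0.97 and Lep lower (−1.36), and of 5 erythroid genes 2 were tested and 1 passed, Hba-a2, higher by 1.65. Of 20 myofiber genes 19 were tested, 1 was higher (Myh1, 2.20) and 6 were lower, among them Mylpf (−1.99), Mylk2 (−1.86) and Ckm (−1.76), with a median of −0.76. Values are relative to the 75th percentile of each array, so lower signal of abundant fiber transcripts and a higher level of other genes occur on the same arrays, and their part in the marker differences was not tested.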

How the data were processed

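The authors amplified RNA of single myofibers (18 cycles) and hybridised it to 1-colour Agilent mouse arrays; the deposited scanner intensity (processed signal of Agilent Feature Extraction 10.7.3.1, per the labels, mm9 annotation) was used. The authors' value table is an intensity per probe and served as an alternative. From the scanner values log2 minus the 75th percentile of each array was taken, values not found, not well above background or uneven were left out, spots of a probe were averaged, and the brightest probe stood for a gene. Genes with values on at least 75% of the 20 Wt and untreated arrays, or of all 27 arrays for the comparisons with treated mice, were kept. Means over the myofibers of each mouse of all 3 groups were fitted in 1 model with limma 3.58.1 (R 4.3.3), with Benjamini-Hochberg adjustment over all genes tested and a threshold of 0.05. The labels do not say whether the mice shared litters. The study's own test over single myofibers was replaced because it counts fibers of a mouse as replicates, and myofibers as replicates were run as an alternative.

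Probes, marker lists and tests were chosen with earlier results of these data known. Values are given in full for each member that passed, for the member of each cell type with the largest difference, and for the defining markers; from each wider list at most 4 genes that passed are named. Col6a3 and Hbb-bt of these lists had no probe of that name. A gene of the lysosomal list that passed is not reported here. On simulated data with known changes for the comparison of Smn1ΔSkm with Wt, the test called 60 of 92 genes changed by 2 log2 units, 107 of 108 changed by 4 and 7 of 16610 unchanged ones. No pair of arrays was identical (correlations of 0.732 to 0.989 over 13134 probes). Without a count of molecules, the number of arrays limits the precision. Alternatives covered the normalization, background correction, filter, probe choice, replicate, slide, scan day, mouse number and each mouse left out.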

Additional observations from a re-analysis of the deposited data

Results flagged for a closer look

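Of 28 sets of values examined (a measure in 1 group), 6 had a highest myofiber further from the next than the Dixon criterion allows. Chance gives about 1 in 20 for a single set of independent values. These sets share fibers and genes, so 6 of 28 is not judged by that rate. Wt myofiber 7 accounts for 5 of the 6. Its stromal marker level was 3.39 (next Wt myofiber −0.37), its number of stromal genes above background was 10 (next 6), its endothelial level was 2.10 (next 0.06), its pericyte level was 3.79 (next 1.04) and its Col1a2 level was 5.79 (next 1.37). In AFS-treated Smn1ΔSkm, Kdr probe 2 was 3.97 in myofiber 2 and 3.68 in the next.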

How the results depend on the processing

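Between Smn1ΔSkm and Wt 2 markers passed, and Ptprc and Cd68 kept a positive difference under each alternative run. The number passing was 0 with quantile normalization of detected values, 1 each with normexp, with values on every array, with the slide as a random block and with the mouse number as a replicate block, and 4 each with no filter, with myofibers as replicates and with the mouse as a random block. It was 6 with no filter and without Wt myofiber 7 (an alternative chosen after seeing the data, like quantile normalization over all spots), and 0 to 2 with a mouse left out. Between treated mice and Wt it was 1 with no filter, 5 with myofibers as replicates, 3 with the mouse as a random block, 2 with the slide block, 1 without Smn1ΔSkm myofibers 1 to 3, 3 with no filter and without Wt myofiber 7, and 0 to 2 with a mouse left out, against 0. Over all genes the numbers moved as well. With myofibers as replicates 3772 of 17059 genes passed as higher and 5476 as lower between Smn1ΔSkm and Wt. With the mouse as a random block 2320 and 3689 did, and with no filter 2246 and 2713 of 35527. Between treated mice and Wt, myofibers as replicates gave 3226 and 3711 of 16648, and the mouse as a random block 1517 and 1876. With a single Wt mouse no gene of the array passed, and the lone mouse is then assumed to vary like the other groups. Between treated and untreated mice the number of markers passing was 0 under every alternative, also with scan day as a fixed block, where 264 genes passed.

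The replicate block took Ptprc to 1.21 (limma adjusted p = 0.0614), Cd68 to 3.08 (0.0675) and Col1a2 to 1.86 (0.0284). Mouse number 3 occurs only in Smn1ΔSkm, so this block sets that mouse aside. These differences are those of Smn1ΔSkm mice 1 and 2 against Wt, as when mouse 3 is left out, and are not a separate check. The deviations of same-numbered mice correlated by −0.06 to 0.31, highest for untreated and treated mouse 1, which are alone on scan day 1 and both have an array on slide 3. Not every pair was above the limit set for pairing, and no label says that the number marks a shared litter or day. Cd68 was also past the threshold no longer with quantile normalization (3.40, limma adjusted p = 0.0563), normexp (2.37, 0.0700) and the slide block (2.54, 0.0789), and Ptprc with quantile normalization (1.74, 0.0656). Quantile normalization of detected values moved the median of all genes from −0.13 to 0.33 and the split of genes passing from 1306 higher and 2373 lower to 740 and 134; over all spots the split was 1194 and 1555, and centred on probes detected everywhere 1752 and 1364 (median 0.08).

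No difference that passed the test turned its sign, and the cause of the turns below was not tested. Csf1r between Smn1ΔSkm and Wt became 0.0518 with quantile normalization and 0.0243 with normexp. Between treated and untreated mice Csf1r became −0.17 (quantile), −0.0809 (quantile over all spots), −0.11 (normexp), −0.0826 (authors' table) and −0.0741 (mean of probes), Kdr −0.0941 (quantile), Ptprc 0.0435 (slide block) and 0.62 (scan day 1), and Cd68 0.0690 (myofibers), 0.90 (slide block), 0.0775 (scan day block) and 2.45 (scan day 1). Col1a2 became −0.13 (quantile), −0.97 (scan day 1) and −0.57 (replicate block), and Col3a1 0.0772 (normexp) and 0.52 (scan day 2). With a mouse left out in turn the same differences ran from −1.47 to 1.22 for Cd68, from −0.57 to 0.54 for Col1a2, from −0.39 to 0.88 for Egfl7 and from −1.01 to 0.84 for Col3a1. With the looser flag the detection medians of stromal, endothelial and immune genes moved in every group, as given above, with immune genes of Wt at 10.5. The median for pericyte genes of treated mice was then 1. When all probes of a gene were asked for, the immune medians were 5 in Wt and 7 in treated mice, and other medians are not listed here. Signals near background, in most of the untested genes, limit what these arrays can show.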
